A study of Homo sapiens with 12 samples.

Results

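The genes of MHC class I antigen presentation were followed in HLE cells, an established human hepatocellular carcinoma line. The 9 members were chosen by symbol, with earlier results of these data known: the heavy chains *HLA-B*, *HLA-C*, *HLA-E* and *HLA-F*, the light chain *B2M*, the peptide transporter subunits *TAP1* and *TAP2*, the loading factor *TAPBP* and the transactivator *NLRC5*. All 9 were found by Entrez identifier among the 26258 genes of the deposited table, and all 9 were among the 13515 genes tested. Cultures received siRNA of 1 of 3 kinds, a control (siCtrl), a YAP plus TAZ knockdown (siY/T) or an ATF4 knockdown (siATF4). Each kind was kept in DMSO, the solvent, or in 5 µM Sorafenib (Srf), a multikinase inhibitor, as the labels give it. That makes 6 groups with 2 RNA-seq libraries apiece, 12 in all. All groups are transfected cultures of this single line. The study's text gives a slightly higher concentration and triplicates, the labels give no time of treatment, and nothing in the labels says that the 2 libraries of a group came from separate cultures. The p-values therefore measure a spread between libraries that may be technical, pooled over all 6 groups for each gene.

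MHC class I molecules carry peptides from inside the cell to its surface, where CD8+ T cells and natural killer cells read them. A polymorphic or nonclassical heavy chain pairs with beta-2 microglobulin, the TAP1/TAP2 transporter brings peptides into the endoplasmic reticulum, and tapasin holds the empty molecule at the transporter until a peptide is bound. Transcription of these genes is known to rest on NF-kB at enhancer A, on interferon regulatory factors at the interferon-stimulated response element (ISRE) and on the SXY module, where NLRC5 acts together with the RFX complex, CREB family factors and NF-Y. Tumour cells, liver cancer cells among them, can escape T cells by lowering these genes.

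Libraries held between 41408348 and 53619732 reads on genes, so that 1 read stood for 0.0186 to 0.0241 CPM (counts per 1000000 reads on genes). The least abundant member, *HLA-F*, rested on 139 to 241 reads a library and *B2M* on 9051 to 12834. The 2 libraries of every group differed by more than counting noise, with a chi-square per gene between 2.98 and 8.30 in 5 groups and 20.7 in siY/T DMSO cells, where 1 stands for counting noise alone. Because the spread was pooled over groups, p-values of comparisons with siY/T DMSO cells may be too small. The targeted transcripts were lower in both libraries of their groups: siY/T changed *YAP1* by -2.41 in DMSO and -2.47 in Sorafenib on the log2 scale and *WWTR1*, which encodes TAZ, by -1.495 and -1.52, and siATF4 changed *ATF4* by -1.33 and -2.47. *WWTR1* also fell with siATF4 in DMSO, by 0.70 on the log2 scale. *ATF4* in turn fell with siY/T in Sorafenib, by 0.63 on the log2 scale, and was at -0.30 in DMSO, under the fold threshold. *KRT8* and *KRT18*, keratins of simple epithelia, and *VIM* were abundant, whereas the defining hepatocyte transcript *ALB* stayed at or below 0.0214 CPM and *APOB* at 0 in every library, with *SERPINA1* the highest of 8 hepatocyte markers at up to 2.32 CPM, and the leukocyte transcript *CD3E* was at 0.

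The members lie in the MHC on chromosome 6 of GRCh37, except for *B2M* and *NLRC5*. By the GENCODE annotation, *HLA-F* (Entrez 3134) spans 29690552 to 29706305, *HLA-E* (3133) 30457286 to 30461971, *HLA-C* (3107) 31236526 to 31239907, *HLA-B* (3106) 31321649 to 31334844, *TAP2* (6891) 32789610 to 32806516, *TAP1* (6890) 32812986 to 32821593 and *TAPBP* (6892) 33267471 to 33282061. *B2M* (567) lies on chromosome 15 from 45003556 to 45011049 and *NLRC5* (84166) on chromosome 16 from 57023397 to 57117443. Reads with more than 1 position in the genome had been dropped by the authors, which can cost reads where genes are alike. Of the 75-base windows of the canonical transcript, 1.98% in *HLA-C*, 2.30% in *HLA-E* and 1.81% in *TAPBP* were shared exactly with a gene elsewhere, 0.230% in *TAP1* and 0.108% in *TAP2*, and none in the others. The alleles of HLE cells may differ from the single reference haplotype, so levels of different HLA genes are uncertain against each other, while each comparison between groups is within the same gene and the same cells. *DHFRP2*, on the same strand as *HLA-B*, shares 30.7% of the bases of the joined exons of *HLA-B* and was not analysed here. A gene without a symbol shares 19.5% of those of *TAP2* on the same strand. On the opposite strand such genes share 21.0% of those of *TAPBP*, 15.6% of *HLA-F* and 14.5% of *HLA-B*.

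The sequences before the transcription starts are shown because the class I promoters carry the sites named above, and because *HLA-B* and *HLA-C*, near neighbours with alike promoters, had unlike values with siATF4. With none for *HLA-E* or *NLRC5*, RefSeq gives a promoter for 7 of the 9 members. Each of their 8 entries matched GRCh37 exactly and once. The windows below read 5′ to 3′ on the gene's strand, and capitals mark matches to a motif searched on both strands. The motifs were GGGATTCC (NF-kB part of enhancer A), a pair of GAAA repeats with 2 or with 1 base between them (ISRE), TGACGC (X2 box), TGACGTCA (CRE), GATTGG (Y box, bound by NF-Y), TGATGNAA (ATF4 with C/EBP) and GGAATG (TEAD). For *HLA-B* they are at chr6:31325071-31325136, chr6:31325045-31325074 and chr6:31324995-31325024, and for *HLA-C* at chr6:31239984-31240049, chr6:31239958-31239987 and chr6:31239908-31239937, all on the minus strand.
HLA-B enhancer A part: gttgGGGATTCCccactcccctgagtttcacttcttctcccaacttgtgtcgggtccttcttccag
HLA-C enhancer A part: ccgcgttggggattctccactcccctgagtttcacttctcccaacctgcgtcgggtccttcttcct
HLA-B X2 box: ccaggatactcgTGACGCgtccccacttcc
HLA-C X2 box: tcctgaatactcaTGACGCgtccccaattc
HLA-B Y box: tatctagagaagCCAATCagcgtcgccgcg
HLA-C Y box: gttctagagaagCCAATCagcgtctccgca

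Both promoters held the X2 and the Y box at nearly the same distance from the start. The exact 8-base NF-kB motif was found in *HLA-B* alone among the members searched, which leave out *HLA-E* and *NLRC5*. *HLA-C* held gggattct in its first window, which departs from that motif in the last base only. The exact motif occurs in 1.116% of the 35116 RefSeq promoters of the same length, the X2 motif in 9.14% and the Y box in 15.1%. By GENCODE, the *HLA-B* X2 and Y windows and the *B2M* and *TAPBP* windows below also lie in exons of other transcripts of the same gene, the *TAP2* window below lies in an exon of another gene on the same strand, and exons of genes on the opposite strand overlap the *HLA-B* windows, the first *HLA-C* window and the *HLA-F* window below. The ISRE match with a spacer of 2 bases was found in 5 members, *B2M*, *HLA-F*, *TAP1*, *TAP2* and *TAPBP*, and in 3.57% of all promoters. These windows are at chr15:45003565-45003594 (plus strand), chr6:29691031-29691082 (plus), chr6:32821594-32821621 (minus), chr6:32806546-32806575 (minus) and chr6:33281856-33281885 (minus), and overlapping matches are joined in capitals.
B2M ISRE: ctctaaGAAAAGGAAACTGAAAacgggaaa
HLA-F ISRE: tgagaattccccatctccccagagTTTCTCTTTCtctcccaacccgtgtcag
TAP1 ISRE: ggccgcTTTCGATTTCGCTTTCccctaa
TAP2 ISRE and X2 box: cGAAAGCGAAAgctgcccgagcccTGACGC
TAPBP ISRE: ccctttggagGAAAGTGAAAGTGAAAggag

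*B2M* and *HLA-F* also held the Y box, and *TAP2* the X2 motif. The ISRE with a spacer of 1 base, the CRE and the ATF4 motif were found in none of the member promoters, against 3.12%, 1.85% and 3.62% of all promoters, and the TEAD motif in *B2M* only, across its start, against 14.0%. A match is a match of letters in a window of 250 bases before to 50 after a start, and binding was not measured. Only exact matches were marked, so a site that departs from its motif is missed. The first windows of *HLA-B* and *HLA-C* both hold tttcacttct, close to the ISRE pattern but unmarked. The lack of a mark there does not mean that an ISRE is absent.

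**Figure D1:**
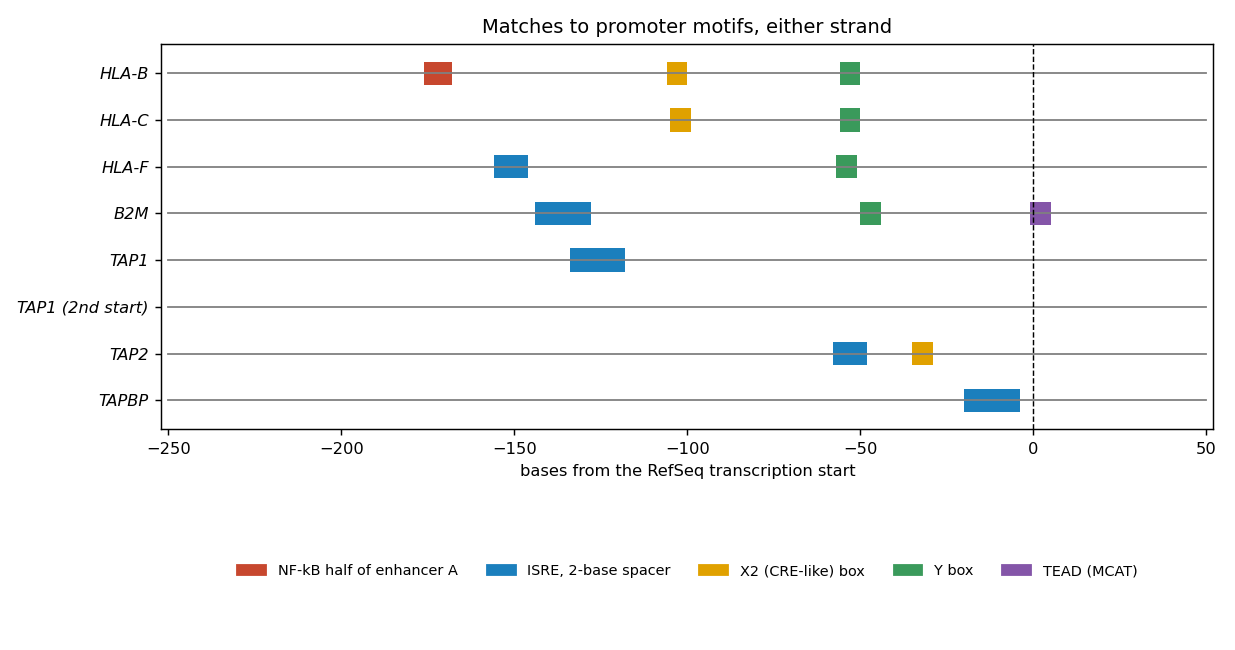
Motif matches in the 8 RefSeq promoter entries of 7 members, by distance in bases from the transcription start (dashed line at 0). The X2 and Y boxes stand at nearly the same distance in *HLA-B* and *HLA-C*. An exact NF-kB motif is seen in *HLA-B* only, and the 2nd start of *TAP1* holds no match.

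A change was called at the study's thresholds, an unadjusted two-sided P under 0.05 from limma on log2(CPM + 0.5) with a log2 fold change of 0.58 or more in either direction. Adjusted p-values are by the Benjamini-Hochberg method over all 13515 genes in the same limma fit. Comparisons within DMSO or within Sorafenib share their siCtrl libraries, and the Sorafenib and siRNA comparisons share libraries too.

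*HLA-B*, a classical heavy chain that presents peptides to CD8+ T cells, showed the largest difference of the members. It was at 40.5 and 37.6 CPM in siCtrl DMSO cells, 57.8 and 51.8 CPM in siY/T DMSO cells and 12.5 and 11.1 CPM in siATF4 DMSO cells. With Sorafenib it was at 36.1 and 38.2 CPM in siCtrl, 47.3 and 48.1 CPM in siY/T and 10.8 and 12.3 CPM in siATF4 cells. The siATF4 libraries lay far below and the siY/T libraries above all siCtrl libraries, whether or not Sorafenib was present. With siATF4 in DMSO *HLA-B* fell by 69.7% (log2 fold change -1.68, standard error 0.079, adjusted p = 1.07e-09 from limma) and in Sorafenib it fell by 69.0% (-1.65, adjusted p = 9.48e-10 from limma), and these 2 effects did not differ detectably (difference 0.04, standard error 0.112). With siY/T its log2 fold change was 0.48 in DMSO (adjusted p = 0.000174, limma) and 0.36 in Sorafenib, both under the fold threshold. Sorafenib itself left it within 0.20 log2 of the DMSO level under each siRNA.

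*HLA-C*, the other classical heavy chain followed, was more abundant. It was at 125 and 114 CPM in siCtrl DMSO, 183 and 162 CPM in siY/T DMSO and 117 and 112 CPM in siATF4 DMSO cells. With Sorafenib the values were 141 and 142 CPM in siCtrl, 177 and 179 CPM in siY/T and 109 and 113 CPM in siATF4 cells. The siATF4 and siCtrl libraries overlapped in DMSO and were apart in Sorafenib. With siATF4 the log2 fold change was -0.06 in DMSO (standard error 0.059) and -0.35 in Sorafenib (adjusted p = 0.000132, limma), and the difference between these effects was -0.29 (standard error 0.083, adjusted p = 0.0137 from limma). That difference missed an adjusted p of 0.05 without the 1st siATF4 DMSO library (-0.26), the 1st siATF4 Srf library (-0.27) or the 2nd siCtrl DMSO library (-0.22). With siY/T the log2 fold change was 0.53 in DMSO and 0.33 in Sorafenib. The first passed the fold threshold without the 1st siCtrl DMSO library (0.60) or the 2nd siY/T DMSO library (0.62).

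*HLA-E*, a nonclassical heavy chain that presents leader peptides to receptors of natural killer cells, fell with siATF4 in both media. It was at 99.0 and 95.0 CPM in siCtrl DMSO, 115 and 103 CPM in siY/T DMSO and 67.6 and 61.8 CPM in siATF4 DMSO cells. With Sorafenib it was at 115 and 111 CPM in siCtrl, 124 and 129 CPM in siY/T and 45.4 and 46.1 CPM in siATF4 cells. The siATF4 libraries were the lowest in each medium without overlap. In DMSO it fell by 33.3% (log2 fold change -0.58, standard error 0.059, adjusted p = 1.55e-06 from limma) and in Sorafenib it fell by 59.5% (-1.30, adjusted p = 5.83e-10 from limma). The effect was larger in Sorafenib by -0.71 on the log2 scale (standard error 0.084, adjusted p = 3.40e-05 from limma). The call in DMSO sat at the fold threshold, and without the 1st siCtrl DMSO library (-0.55) or the 2nd siATF4 DMSO library (-0.52) it was not made. In Sorafenib against DMSO, *HLA-E* differed by 0.22 in siCtrl, 0.21 in siY/T and -0.49 in siATF4 cells, all under the fold threshold.

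*HLA-F*, a nonclassical heavy chain of low abundance, stayed between 2.98 and 4.71 CPM. The 2 libraries were at 3.84 and 3.99 CPM in siCtrl, 4.70 and 4.71 CPM in siY/T, 3.45 and 3.35 CPM in siATF4 cells with DMSO, and with Sorafenib 3.83 and 3.85 CPM in siCtrl, 4.001 and 4.185 CPM in siY/T and 3.38 and 2.98 CPM in siATF4 cells. Both siATF4 groups lay below and both siY/T groups above their siCtrl libraries, and no comparison was called, with log2 fold changes between -0.24 and 0.24. *HLA-F* shares exon sequence with *HLA-F-AS1* on the opposite strand, which was at 0.436 to 1.96 CPM. The strand setting of the counting is not given in the sources used here.

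*B2M*, which encodes the shared light chain, varied least. It was at 216 and 219 CPM in siCtrl, 250.3 and 219 CPM in siY/T, 234 and 232 CPM in siATF4 cells with DMSO, and with Sorafenib 231 and 225 CPM in siCtrl, 252 and 256 CPM in siY/T and 234 and 228 CPM in siATF4 cells. The highest group mean was 1.17 times the lowest. No comparison was called for *B2M*, and with siATF4 its log2 fold change was 0.10 in DMSO and 0.02 in Sorafenib (standard error 0.053), where *HLA-B* and *HLA-E* fell.

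**Figure D2:**
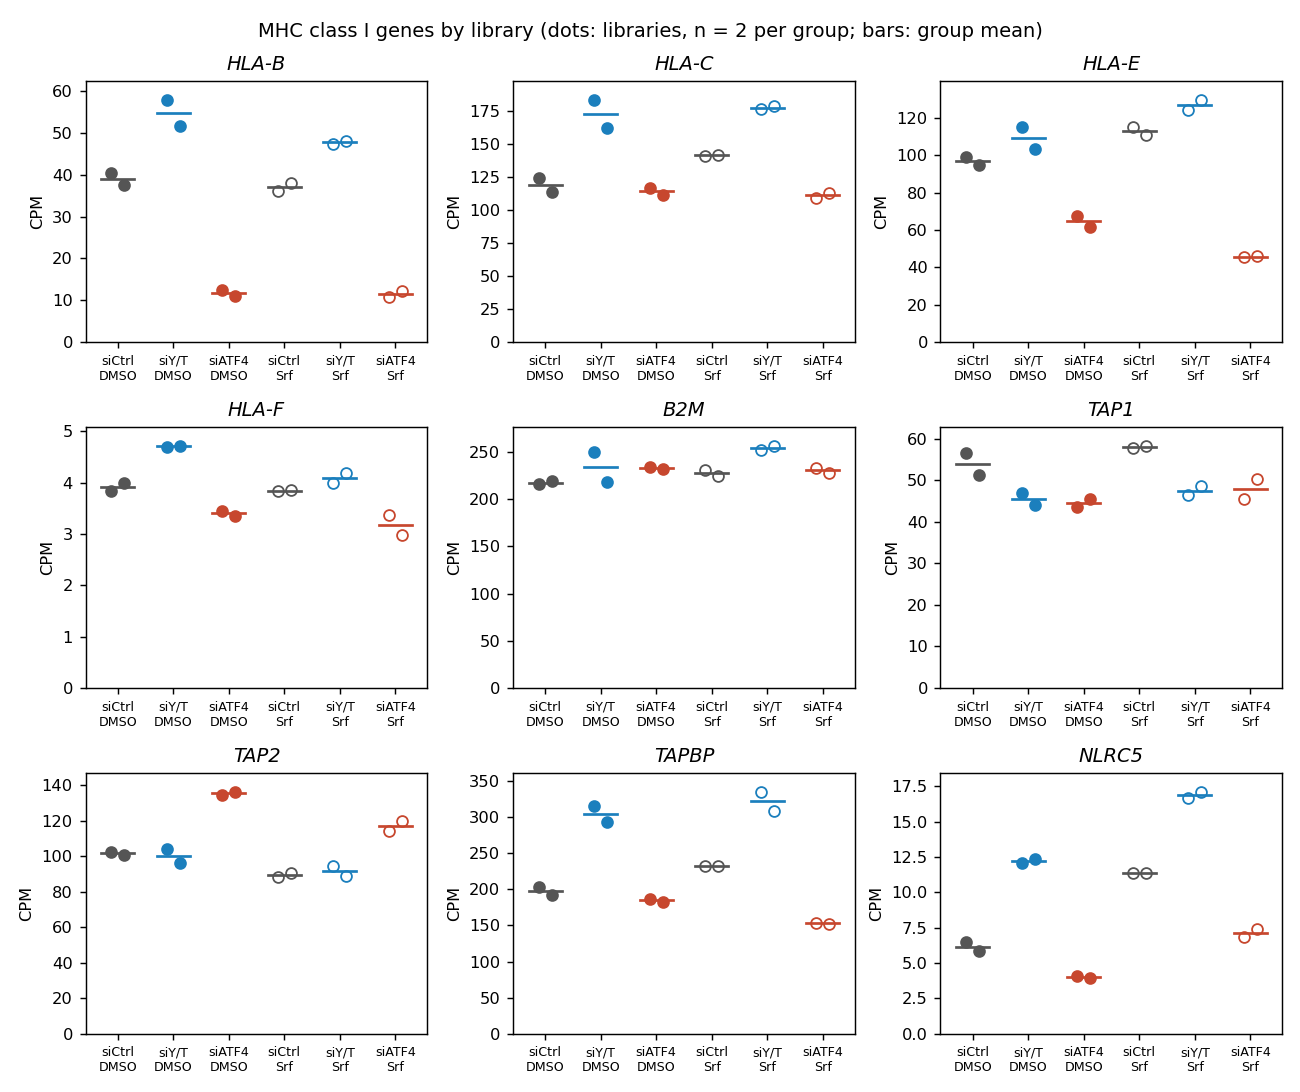
Level of each of the 9 members in CPM (vertical axis from 0) in the 6 groups, with a dot per library, a bar at the group mean and open dots for Sorafenib. *HLA-B* sits at 10.8 to 12.5 CPM in the 4 siATF4 libraries and at 36.1 CPM or more in the others, while *B2M* stays between 216 and 256 CPM.

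*TAP1* and *TAP2* encode the subunits of 1 transporter, and their values with siATF4 had opposite signs. *TAP1* was at 56.6 and 51.2 CPM in siCtrl DMSO, 47.0 and 43.98 CPM in siY/T DMSO and 43.6 and 45.6 CPM in siATF4 DMSO cells. In Sorafenib it was at 57.7 and 58.2 CPM in siCtrl, 46.6 and 48.5 CPM in siY/T and 45.5 and 50.3 CPM in siATF4 cells. Both siRNA groups lay below siCtrl in each medium, with log2 fold changes of -0.24 and -0.28 for siY/T and -0.27 and -0.27 for siATF4 in DMSO and Sorafenib (standard error 0.063), none of them called. *TAP1* shares exon sequence with the opposite strand gene *PSMB8-AS1*, which was at 0.664 to 1.68 CPM.

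*TAP2* was at 102 and 101 CPM in siCtrl DMSO, 104 and 96.4 CPM in siY/T DMSO and 135 and 136 CPM in siATF4 DMSO cells. In Sorafenib it was at 88.3 and 90.9 CPM in siCtrl, 94.8 and 89.1 CPM in siY/T and 114 and 120 CPM in siATF4 cells. It was the member whose siATF4 libraries lay highest, above the other groups of the same medium without overlap. With siATF4 in DMSO the log2 fold change was 0.41 with a standard error of 0.050 (adjusted p = 7.72e-06 from limma) and in Sorafenib 0.38 (adjusted p = 1.22e-05 from limma), under the fold threshold. Sorafenib against DMSO gave -0.18, -0.13 and -0.21 in siCtrl, siY/T and siATF4 cells.

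*TAPBP* encodes tapasin, which bridges the heavy chain and the transporter. It was at 203 and 192 CPM in siCtrl DMSO, 315 and 294 CPM in siY/T DMSO and 187 and 183 CPM in siATF4 DMSO cells. In Sorafenib it was at 232 and 232 CPM in siCtrl, 335 and 309 CPM in siY/T and 153 and 152 CPM in siATF4 cells. The siY/T libraries were the highest in each medium, and the siATF4 libraries the lowest, without overlap. *TAPBP* rose by 54.1% with siY/T in DMSO (log2 fold change 0.62, standard error 0.049, adjusted p = 3.01e-07 from limma) and was at 0.47 in Sorafenib, where it was not called. Without the 1st siY/T DMSO library the value in DMSO was 0.57, and it was not called. With siATF4 *TAPBP* was at -0.10 in DMSO and fell by 34.2% in Sorafenib (-0.60, adjusted p = 1.41e-07 from limma), a difference of -0.51 between the effects (standard error 0.070, adjusted p = 0.000111 from limma).

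*NLRC5* encodes the transactivator of the class I genes. It was at 6.47 and 5.81 CPM in siCtrl DMSO, 12.1 and 12.3 CPM in siY/T DMSO and 4.07 and 3.96 CPM in siATF4 DMSO cells. In Sorafenib it was at 11.4 and 11.4 CPM in siCtrl, 16.7 and 17.1 CPM in siY/T and 6.84 and 7.38 CPM in siATF4 cells. No pair of neighbouring groups in the order of its levels overlapped. *NLRC5* rose by 98.7% with siY/T in DMSO (log2 fold change 0.94, standard error 0.076, adjusted p = 3.48e-07 from limma) and was at 0.55 in Sorafenib, under the threshold. With siATF4 it was at -0.56 in DMSO, also under the threshold, and fell by 37.4% in Sorafenib (-0.64, adjusted p = 4.88e-06 from limma). The value in DMSO passed the fold threshold without the 2nd siCtrl DMSO library (-0.63).

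Sorafenib raised *NLRC5* in siCtrl cells by 85.0% (log2 fold change 0.84, adjusted p = 8.08e-07 from limma) and in siATF4 cells by 77.1% (0.75, adjusted p = 4.94e-06 from limma), and in siY/T cells the log2 fold change was 0.45. The effect of siY/T on *NLRC5* in Sorafenib differed from that in DMSO by -0.39 (standard error 0.107, adjusted p = 0.0221 from limma). The difference missed an adjusted p of 0.05 without the 1st or 2nd siCtrl Srf library (-0.39 each), the 1st siY/T Srf library (-0.37) or the 2nd siCtrl DMSO library (-0.32). *NLRC5* was the only member that Sorafenib changed by the thresholds.

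Counted over the members, siY/T in DMSO raised 2 of 9, *TAPBP* and *NLRC5*, where 11.0% of all genes were called higher and 3.61% lower, and lowered 0. Without a minimum fold, at an adjusted p of 0.05 from limma, 6 members were higher and 1 lower, where 37.3% and 22.8% of all genes were. In Sorafenib siY/T changed 0 of 9 by the thresholds of limma, with 6.11% of all genes called higher and 3.84% lower. There, 7 members passed an adjusted p of 0.05 without a minimum fold, 6 higher and 1 lower, where 30.2% and 18.8% of all genes did. With siATF4, 2 of 9 fell in DMSO, *HLA-B* and *HLA-E*, and 0 rose, where 14.1% of all genes were called lower and 8.57% higher. Without a minimum fold 4 were lower and 1 higher, against 34.4% and 33.4% of all genes. In Sorafenib 4 of 9 fell, *HLA-B*, *HLA-E*, *TAPBP* and *NLRC5*, and 0 rose, where 18.7% of all genes were called lower and 10.3% higher. Without a minimum fold 7 were lower and 1, *TAP2*, higher, against 37.4% and 35.8% of all genes. Sorafenib raised 1 of 9 in siCtrl cells and 1 of 9 in siATF4 cells, both times *NLRC5*, and changed 0 of 9 in siY/T cells, where 12.3%, 5.68% and 5.83% of all genes were called higher and 5.15%, 2.95% and 4.14% lower. Without a minimum fold Sorafenib gave 4 members higher and 1 lower in siCtrl cells (36.3% and 26.9% of all genes), 2 and 1 in siY/T cells (29.5% and 23.5%) and 1 and 3 in siATF4 cells (27.9% and 22.4%). Both calls for *TAPBP* in siY/T DMSO and for *HLA-E* in siATF4 DMSO rest close to the fold threshold, as given above.

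The median log2 fold change of the 9 members with siY/T was 0.24 in DMSO and 0.16 in Sorafenib, beside 0.07 and 0.05 over all genes tested. With siATF4 it was -0.18 and -0.35, beside 0.00 and -0.01. With Sorafenib it was 0.11 in siCtrl, 0.06 in siY/T and -0.04 in siATF4 cells, beside 0.05, 0.04 and 0.03. Differences between the effects of an siRNA in the 2 media passed an adjusted p of 0.05 for 3 of 9 members with siATF4, all negative, where 21.8% of all genes differed in that direction and 19.3% in the other, and for 1 with siY/T, also negative, where 14.2% and 7.81% did.

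**Figure D3:**
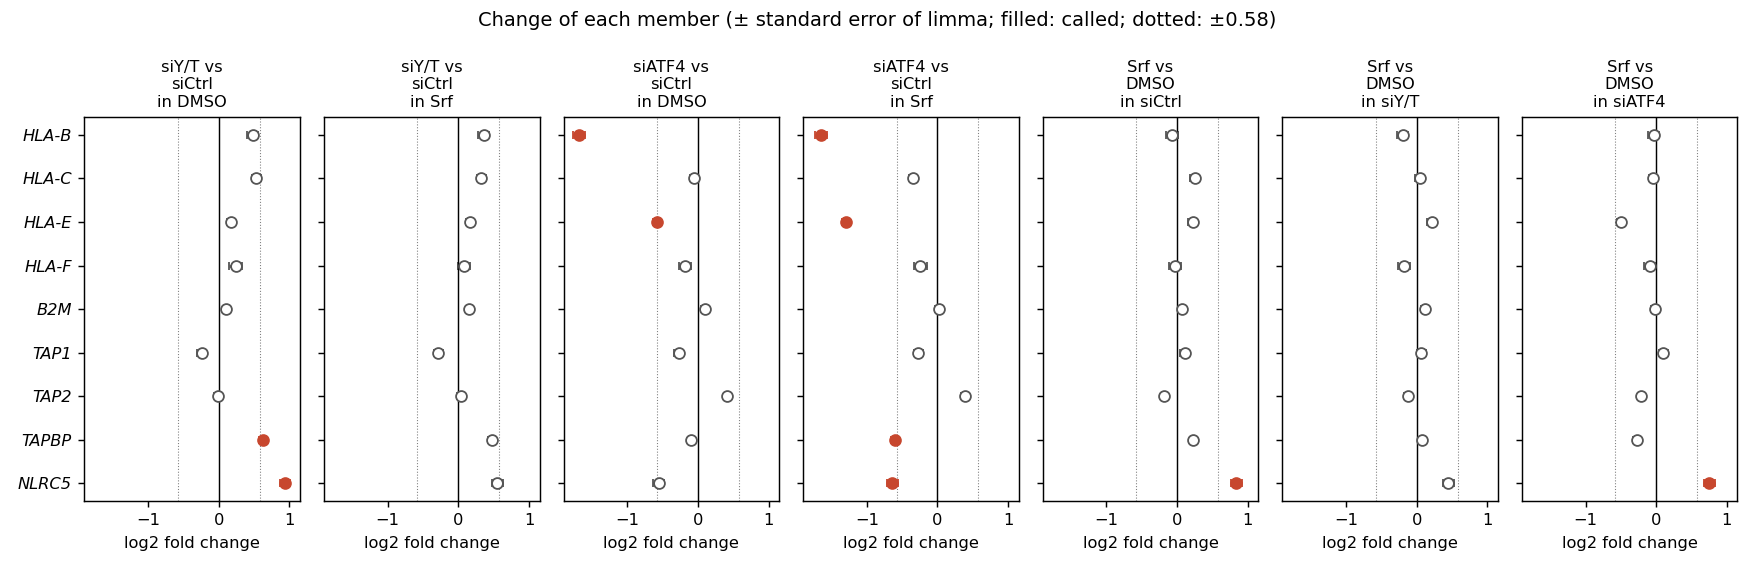
Log2 fold change of each member (horizontal axis, with the standard error of limma) in the 7 comparisons, filled where called, with dotted lines at the fold threshold of 0.58. The filled points with siATF4 are *HLA-B* and *HLA-E* in DMSO and *HLA-B*, *HLA-E*, *TAPBP* and *NLRC5* in Sorafenib, all to the left of 0.

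Per kilobase of the canonical transcript the mean level over the 12 libraries was highest in *B2M* at 247 CPM per kb, followed by *HLA-C* at 90.5, *TAPBP* at 67.3, *HLA-E* at 36.4, *HLA-B* at 21.9, *TAP2* at 18.8, *TAP1* at 18.5, *HLA-F* at 2.60 and *NLRC5* at 1.42 CPM per kb. *TAP1* and *TAP2*, neighbours in this order, were nearly level. The ratio of the highest to the lowest group mean was 4.75 in *HLA-B*, 4.20 in *NLRC5*, 2.77 in *HLA-E*, 2.11 in *TAPBP*, 1.60 in *HLA-C*, 1.51 in *TAP2*, 1.48 in *HLA-F*, 1.30 in *TAP1* and 1.17 in *B2M*. The order of the group means was the same in *HLA-C* and *TAPBP*, from siY/T Srf and siY/T DMSO down to siATF4 DMSO and siATF4 Srf, but the libraries of both siY/T groups overlapped in each gene, and in *HLA-C* those of siATF4 DMSO also overlapped with siCtrl DMSO and with siATF4 Srf. In *HLA-B*, *HLA-C*, *HLA-F* and *TAPBP* the siATF4 Srf group had the lowest mean, as in *HLA-E*. Its libraries overlapped with those of siATF4 DMSO in *HLA-B*, *HLA-C* and *HLA-F*, so its rank there is not resolved.

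Ratios within a library do not depend on the library's total. *HLA-B* stood at 0.325 and 0.331 of *HLA-C* in siCtrl DMSO cells and at 0.315 and 0.319 in siY/T DMSO cells, against 0.107 and 0.0994 in siATF4 DMSO cells. In Sorafenib the ratio was 0.256 and 0.268 in siCtrl, 0.268 and 0.269 in siY/T and 0.0985 and 0.109 in siATF4 cells. The siATF4 libraries did not overlap with the others, and the siY/T libraries lay between 0.268 and 0.319. *HLA-E* stood at 0.814 ± 0.030 of *HLA-C* in siCtrl (SD, n = 2), 0.633 ± 0.0047 in siY/T, 0.564 ± 0.017 in siATF4 cells with DMSO, and with Sorafenib 0.799 ± 0.025 in siCtrl, 0.713 ± 0.016 in siY/T and 0.411 ± 0.0052 in siATF4 cells. In each medium the ratio was lower with either siRNA than in siCtrl cells, and lowest with siATF4.

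The reads of the 4 heavy chain members together stood at 1.19 ± 0.070 times those of *B2M* in siCtrl DMSO (SD, n = 2), 1.46 ± 0.022 in siY/T DMSO and 0.833 ± 0.033 in siATF4 DMSO cells, and at 1.30 ± 0.022, 1.40 ± 0.0076 and 0.744 ± 0.030 in the same cells with Sorafenib. These sums leave out the other 5 genes with a class I HLA symbol in the table. *HLA-B* took 15.1%, 16.0% and 6.07% of the summed reads in siCtrl, siY/T and siATF4 cells with DMSO and 12.6%, 13.4% and 6.71% with Sorafenib. *TAPBP* stood at 1.94 ± 0.054 times *TAP2* in siCtrl, 3.03 ± 0.019 in siY/T, 1.36 ± 0.035 in siATF4 cells with DMSO, and with Sorafenib 2.59 ± 0.055 in siCtrl, 3.50 ± 0.046 in siY/T and 1.31 ± 0.051 in siATF4 cells (SD, n = 2 each). No groups that differ by siRNA overlapped in this ratio within a medium.

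**Figure D4:**
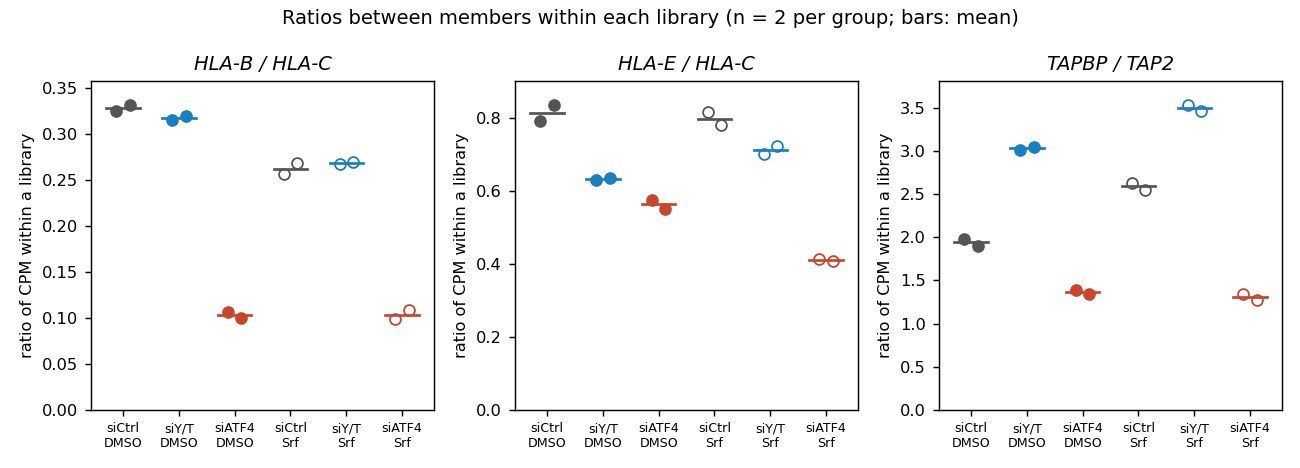
Ratios of CPM within each library, *HLA-B* to *HLA-C*, *HLA-E* to *HLA-C* and *TAPBP* to *TAP2*, with a dot per library, a bar at the mean of 2 and open dots for Sorafenib. The *HLA-B* to *HLA-C* ratio sits between 0.0985 and 0.109 in the 4 siATF4 libraries and between 0.256 and 0.331 in the others.

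Over the 12 libraries, Pearson's r on the log2 scale was 0.97 between *HLA-C* and *TAPBP*, 0.93 between *HLA-B* and *HLA-E* and 0.89 between *HLA-C* and *NLRC5*. It was -0.84 between *TAP2* and *HLA-B* and also between *TAP2* and *NLRC5*, while *B2M* and *HLA-B* gave 0.14. The libraries fall into 6 groups, so these values describe the group means and carry no test. The genes whose pattern was nearest to the mean centred profile of the members were *TCTN2* (r = 0.998), *MPC2* (0.994), *CDK7* (0.993), *SEMA6C* (0.992) and *SGPP1* (0.992). Of the 11144 genes averaging 5 CPM or more, 12.3% had an r over 0.9.

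Genes of peptide supply and loading were described as a list of 11, all tested. The list holds immunoproteasome and activator subunits, trimming peptidases and chaperones. With siY/T in DMSO 6 of 11 rose and 0 fell, with a list median of 0.58 beside 0.07 over all genes. *TAPBPL*, a tapasin homologue that edits peptides, rose by 1.17 on the log2 scale, *ERAP1*, which trims peptides, by 0.68 and the immunoproteasome subunit *PSMB8* by 0.65. With siY/T in Sorafenib 3 rose and 0 fell, *TAPBPL* by 0.99, *ERAP1* by 0.85 and its relative *ERAP2* by 0.60, with a median of 0.45. With siATF4 0 rose and 3 fell in DMSO, with a median of -0.05: the immunoproteasome subunit *PSMB9* by 1.22 on the log2 scale, the chaperone *PDIA3*, which is joined to tapasin, by 0.85 and the lectin chaperone *CANX* by 0.65. In Sorafenib 4 fell and 0 rose, led by *PSMB9*, which fell by 1.09, *PDIA3*, which fell by 0.75, and *ERAP2*, which fell by 0.71, with a median of -0.20. *TAPBPL* had the other sign with siATF4, at 0.50 in DMSO and 0.24 in Sorafenib. Over all genes 11.0% and 6.11% were called higher with siY/T and 14.1% and 18.7% lower with siATF4 in DMSO and Sorafenib. Sorafenib changed 0 of the 11 under any siRNA by the thresholds of limma. At an adjusted p of 0.05 without a minimum fold 5 were higher and 0 lower in siCtrl cells, where 36.3% and 26.9% of all genes were, 6 and 2 in siY/T cells (29.5% and 23.5%) and 5 and 1 in siATF4 cells (27.9% and 22.4%).

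*PSMB9* was at 25.7 and 23.3 CPM in siCtrl, 39.1 and 35.4 CPM in siY/T, 10.8 and 9.64 CPM in siATF4 cells with DMSO, and with Sorafenib 31.1 and 32.9 CPM in siCtrl, 33.7 and 36.1 CPM in siY/T and 14.3 and 15.1 CPM in siATF4 cells. Its siATF4 libraries were apart from all others, as those of *HLA-B* were. In the MHC the annotated span of *PSMB9*, 32811913 to 32827628 on the plus strand, encloses that of *TAP1* on the minus strand. The values of *PSMB9* and *TAP1* with siATF4 in DMSO were -1.22 and -0.27.

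Regulators of the class I genes were listed as 20, all tested. With siY/T in DMSO 2 rose and 1 fell: *IRF9* by 1.10 and *STAT2* by 0.73, which form a complex that binds the ISRE, and the interferon receptor kinase *JAK1*, which fell by 0.59. In Sorafenib 0 rose and *JAK1* fell by 0.63. With siATF4 in DMSO 2 rose and 4 fell, with *IRF9* at -0.76, *STAT2* at -0.70 and the NF-kB precursor gene *NFKB1* at 0.68. *JAK1* was also among the 4 that fell there. With siATF4 in Sorafenib 0 rose and 4 fell, led by *IRF9* at -1.31, *STAT2* at -0.95 and the RFX subunit *RFXANK* at -0.75. Sorafenib changed 0 of the 20 in siCtrl and siY/T cells by the thresholds of limma, where 7 were higher and 4 lower in siCtrl cells (36.3% and 26.9% of all genes) and 3 and 5 in siY/T cells (29.5% and 23.5%) at an adjusted p of 0.05 without a minimum fold. In siATF4 cells Sorafenib raised 1, the RFX subunit *RFXAP*, by 0.65, of low abundance and named after its values were seen. The list medians in the 4 siRNA comparisons were 0.12, 0.17, -0.10 and -0.09. Over all genes 11.0% and 6.11% were called higher and 3.61% and 3.84% lower with siY/T in DMSO and Sorafenib. With siATF4 8.57% and 10.3% were called higher and 14.1% and 18.7% lower. With Sorafenib 12.3%, 5.83% and 5.68% were called higher and 5.15%, 4.14% and 2.95% lower in siCtrl, siY/T and siATF4 cells. *IRF9* was at 26.0 and 26.9 CPM in siCtrl, 58.6 and 56.1 CPM in siY/T, 16.4 and 14.5 CPM in siATF4 cells with DMSO, and with Sorafenib 38.4 and 38.4 CPM in siCtrl, 53.1 and 56.7 CPM in siY/T and 15.04 and 15.24 CPM in siATF4 cells, and no siRNA groups overlapped within a medium.

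Partners of beta-2 microglobulin other than the HLA chains, with the stress ligands related to class I, were listed as 9, of which 7 were tested. With siY/T in DMSO 4 rose and 0 fell, among them *MR1*, which presents vitamin metabolites, at 1.36, *HFE*, a regulator of iron uptake, at 0.96 and *FCGRT*, the neonatal Fc receptor, at 0.95. In Sorafenib 3 rose and 0 fell, with *MR1* at 0.93 and *FCGRT* at 0.69. The remaining riser in both was *CD1D*, which presents lipids, at 1.13 and 0.97, of low abundance and named after its values were seen. With siATF4 1 rose and 1 fell in DMSO, where *HFE* was at -1.30, and 1 rose and 4 fell in Sorafenib, with *HFE* at -1.46, *MR1* at -0.93 and *FCGRT* at -0.61. The gene that rose in both was the stress ligand *ULBP2*, at 1.20 and 0.98, of low abundance and named after its values were seen. *HFE* was at 24.7 and 25.7 CPM in siCtrl, 51.0 and 47.8 CPM in siY/T, 9.77 and 10.1 CPM in siATF4 cells with DMSO, and with Sorafenib 37.0 and 36.9 CPM in siCtrl, 54.1 and 54.2 CPM in siY/T and 13.6 and 12.6 CPM in siATF4 cells. Sorafenib raised 2 and lowered 1 in siCtrl cells, *FCGRT* at 1.15, *MR1* at 0.88 and the stress ligand *MICA* at -0.67. It raised 1 and lowered 3 of the 7 in siY/T cells, and raised 1 and lowered 1 in siATF4 cells. Over all genes 11.0% and 6.11% were called higher and 3.61% and 3.84% lower with siY/T in DMSO and Sorafenib. With siATF4 8.57% and 10.3% were called higher and 14.1% and 18.7% lower. With Sorafenib 12.3%, 5.83% and 5.68% were called higher and 5.15%, 4.14% and 2.95% lower in siCtrl, siY/T and siATF4 cells.

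**Figure D5:**
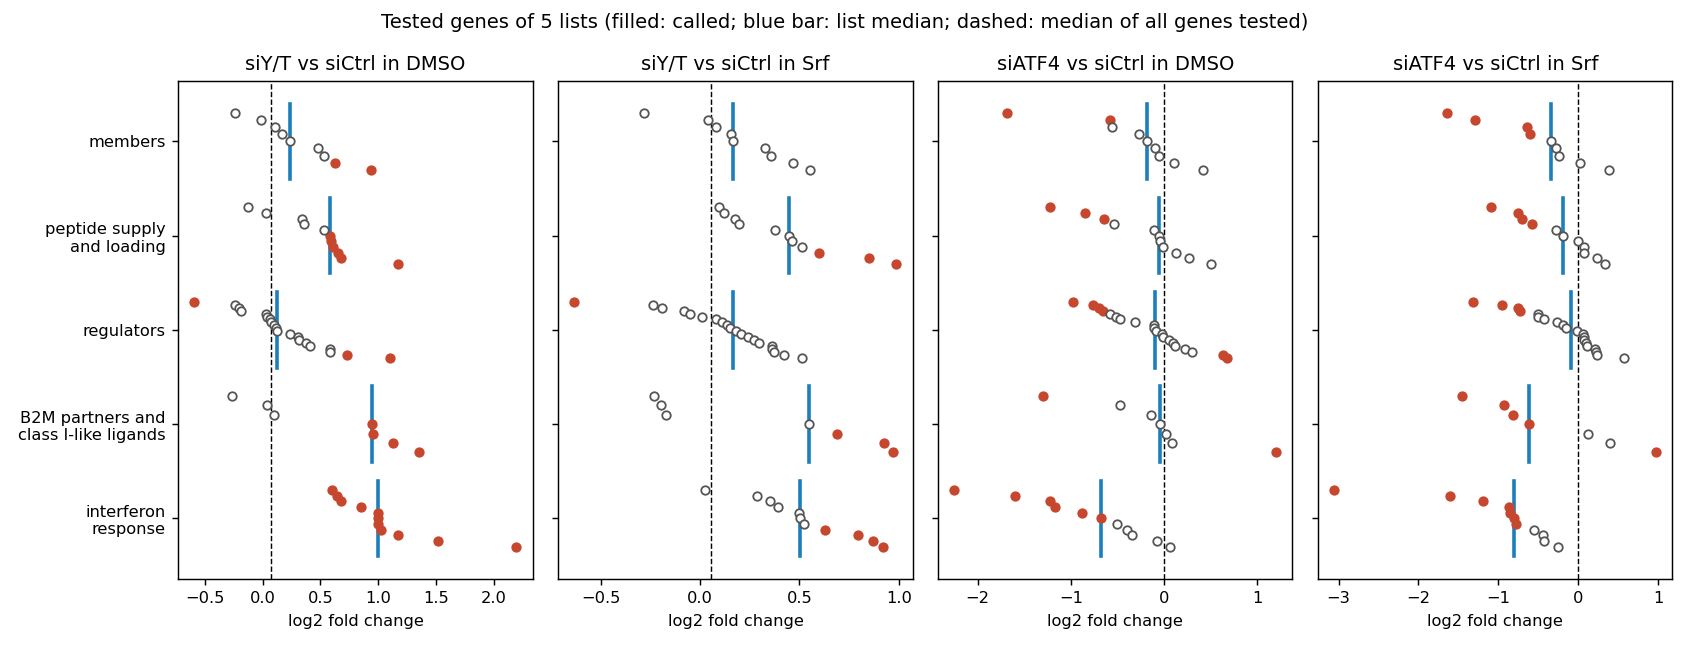
Log2 fold changes (horizontal axis) of the tested genes of 5 lists in the 4 siRNA comparisons, filled where called, with a blue bar at each list's median and a dashed line at the median of all genes tested. All 11 interferon response genes are filled to the right with siY/T in DMSO, and the members' median is at 0.24 there and at -0.35 with siATF4 in Sorafenib.

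Genes of the interferon response were listed as 15, of which 11 were tested. With siY/T in DMSO 11 rose, with a median of 1.00, with *IFIT1* at 1.52 and *GBP1* at 1.03. The largest value was that of the less abundant *GBP2*, at 2.20, named after its values were seen. In Sorafenib 4 rose and 0 fell, with a median of 0.50. With siATF4 6 fell in DMSO and 7 in Sorafenib and 0 rose, with medians of -0.68 and -0.81, and *IFIT1* was at -2.25 and -3.05. Sorafenib raised 8 in siCtrl, 2 in siY/T and 5 in siATF4 cells. Over all genes 11.0% and 6.11% were called higher with siY/T in DMSO and Sorafenib. With siATF4 14.1% and 18.7% were called lower. With Sorafenib 12.3%, 5.83% and 5.68% were called higher in siCtrl, siY/T and siATF4 cells. The medians of this list had the sign of the members' medians in these 4 siRNA comparisons, and the part of these genes in the members' values was not tested. Of 10 class II genes only *HLA-DMA* was tested, at 0.376 to 4.79 CPM, and it is named after its values were seen. Its log2 fold change in DMSO and Sorafenib was 0.98 and 0.65 with siY/T and -0.73 and -1.46 with siATF4, all called. With Sorafenib it was called at 0.97 in siCtrl and 0.64 in siY/T cells, and was at 0.24, not called, in siATF4 cells. *CIITA*, the transactivator of class II genes, and *HLA-DRA* were each at 0 in all but 1 library, where 1 read was found.

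Other transcripts moved with the groups as well. The summed level of 4 epithelial markers was 3223 to 3333 CPM in siCtrl, 978 to 1025 CPM in siY/T, 2140.2 to 2256 CPM in siATF4 cells with DMSO, and with Sorafenib 3171 to 3300.0 CPM in siCtrl, 1300.2 to 1339 CPM in siY/T and 2591 to 2792 CPM in siATF4 cells. The 8 hepatocyte markers, all of low abundance, summed to 0.168 to 0.288 CPM in siCtrl, 1.74 to 2.65 CPM in siY/T and 0.0429 to 0.0792 CPM in siATF4 cells with DMSO, and with Sorafenib to 0.611 to 0.665, 1.56 to 1.96 and 0.133 to 0.150 CPM. They were thus higher with siY/T and lower with siATF4 in each medium, without overlap. The 4 mesenchymal markers summed to 2355 to 2448 CPM in siCtrl, 2434 to 2699 CPM in siY/T and 2184 to 2286 CPM in siATF4 cells with DMSO, and with Sorafenib to 2990 to 3014, 2520 to 2602 and 2026 to 2044 CPM. The part of these markers in the members' values was not tested. The 5 leukocyte markers summed to 0.300 to 1.07 CPM and the 3 endothelial markers to 0.0483 to 0.262 CPM over all libraries. With bulk RNA, fewer cells with a transcript and less of it per cell cannot be told apart.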

How the data were processed

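RNA of 12 libraries was sequenced by the authors, mapped to hg19 with STAR allowing unique hits only, counted over RefSeq exons with QuasR and deposited as CPM, counts per 1000000 reads on genes. The authors tested with edgeR. All values were whole multiples of 1 read within 0.001 read, so reads were recovered. Of 26258 Entrez identifiers, 26111 were named from RefSeq (GRCh38.p14, names and promoters only). Positions came from GENCODE v44lift37 on GRCh37.

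Genes reaching 1 CPM in 2 or more libraries were fitted as log2(CPM + 0.5) with limma 3.58.1 (R 4.3.3), with a variance trend, 1 coefficient per group and all 12 libraries. Fold changes on this scale understate those of low genes. The steps were tested on simulated reads. The alternatives were other pseudocounts, filters, TMM and quantile normalization, a replicate block, fewer groups, adjusted thresholds, edgeR 4.0.16, DESeq2 1.42.0 and leaving out each library. Members and lists were chosen with earlier results of these data known. From each list, up to 3 called genes with the largest change and a mean of at least 5 CPM were named per comparison. Figures were drawn with matplotlib 3.10.9, and tables with pandas 2.3.3 under Python 3.11.15.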

Additional observations from a re-analysis of the deposited data

Results flagged for a closer look

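For 4 results the effect of an siRNA differed between Sorafenib and DMSO by the test of the difference itself, at an adjusted p under 0.05 from limma. With siATF4 the difference was -0.71 for *HLA-E*, -0.51 for *TAPBP* and -0.29 for *HLA-C* on the log2 scale, and all 3 were lower with siATF4 in Sorafenib than in DMSO relative to siCtrl. With siY/T it was -0.39 for *NLRC5*, where the siY/T libraries lay above siCtrl in both media. The values by library are given above. Of all genes, 21.8% differed in the negative direction with siATF4 and 14.2% with siY/T.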

How the results depend on the processing

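Under settings other than leaving out a library, 169 member counts stayed within 1.5 times the reported value and 19 did not, and 657 member fold changes kept their direction and side of the threshold, 7 fell short of it, 3 newly passed it and 6 turned sign. This count covers the 7 comparisons and the differences between media given with a value above. With other filters, the replicate block or only the groups compared, each fold change equals that of the main fit by construction. Only the p-value could differ there, so those agreements say nothing about the size of a change. With TMM scaling 1 member rose with siY/T in DMSO, as *TAPBP* was at 0.56, and with pseudocount 1, TMM or quantile normalization 1 member fell with siATF4 in DMSO, as *HLA-E* was at -0.58, -0.58 and -0.56, all short of the threshold. Quantile normalization and DESeq2 left 0 members with a difference between the effects of siY/T, *NLRC5* being at -0.22 and -0.42. Quantile normalization also brought *NLRC5* with siATF4 in Sorafenib to -0.44, whereas in DMSO pseudocount 0.1, edgeR and DESeq2 gave -0.60, -0.62 and -0.62, past the threshold. The cause of these shifts was not tested.

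At an adjusted p under 0.05 with no minimum fold, 6 members were higher and 1 lower with siY/T in each medium, 1 higher and 4 lower with siATF4 in DMSO, 1 higher and 7 lower with siATF4 in Sorafenib, and with Sorafenib 4 higher and 1 lower in siCtrl, 2 higher and 1 lower in siY/T and 1 higher and 3 lower in siATF4 cells. The sign turned under quantile normalization for *HLA-F* with siY/T in Sorafenib (-0.0051) and with siATF4 in Sorafenib (0.049), *B2M* with siATF4 in Sorafenib (-0.039), *TAP2* with siY/T in Sorafenib (-0.022, and -0.018 with TMM) and the difference of *HLA-B* with siATF4 (-0.016), none of which was called.

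Leaving out 1 library in turn, with a lone library assumed to vary like the other groups, gave 1 to 3 members higher with siY/T in DMSO (3 without the 1st siCtrl DMSO or the 2nd siY/T DMSO library), 1 to 3 lower with siATF4 in DMSO (3 without the 2nd siCtrl DMSO library), 0 to 3 with a difference between the effects of siY/T (3 without the 2nd siY/T DMSO library) and 2 to 3 with one between those of siATF4. It turned the sign of values near 0. Among those counted above, the ranges were -0.13 to 0.056 for *HLA-B* with Sorafenib in siATF4 cells, -0.055 to 0.13 for its difference with siATF4, -0.12 to 0.011 for *HLA-C* with siATF4 in DMSO, -0.044 to 0.13 for *HLA-C* with Sorafenib in siY/T cells, -0.0034 to 0.038 for *B2M* with siATF4 in Sorafenib, -0.033 to 0.00064 for *B2M* with Sorafenib in siATF4 cells, -0.076 to 0.039 for *TAP2* with siY/T in DMSO and -0.0072 to 0.082 for *TAP2* with siY/T in Sorafenib. Uncalled differences between media outside that count also turned sign, for siY/T in *B2M* (-0.048 to 0.15), *HLA-E* (-0.087 to 0.073), *TAP1* (-0.11 to 0.029) and *TAP2* (-0.0015 to 0.11) and for siATF4 in *HLA-F* (-0.14 to 0.017), *TAP1* (-0.078 to 0.066) and *TAP2* (-0.064 to 0.0047), and so, under other settings, did those of *B2M* for siY/T (-0.035 to 0.054) and *HLA-F* for siATF4 (-0.069 to 0.089). With the replicate number as a block, 2 members rose with siY/T in DMSO, 2 fell with siATF4 in DMSO and 4 in Sorafenib. The differences between the 1st and 2nd library correlated from -0.391 to 0.304 over 15 pairs of groups. They correlated positively in every pair within a medium, from 0.063 to 0.302 in DMSO and from 0.154 to 0.304 in Sorafenib. Across media the values ran from -0.391 to 0.025. A block with the same sign in both media cannot take up such a pattern, and a block within each medium was not run.

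Quantile normalization lowered the share of higher calls over all genes from 75.3% to 57.0% with siY/T in DMSO, where 789 in place of 488 genes were lower, and raised it from 35.4% to 48.5% with siATF4 in Sorafenib. In Sorafenib against DMSO the share went from 70.5% to 52.3% in siCtrl, 58.5% to 46.9% in siY/T and 65.8% to 54.7% in siATF4 cells. Over all genes 1055 had a positive and 1923 a negative difference for siY/T. A fit of only the groups compared gave 652 positive, and leaving out a library gave 446 positive and 1135 negative without the 2nd siCtrl DMSO library, 475 and 1148 without the 2nd siCtrl Srf library, 614 positive without the 1st siY/T Srf library, 620 without the 1st siCtrl DMSO library and 2170 without the 2nd siY/T DMSO library. With 2 libraries a group, differences well under the fold threshold are uncertain.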
